A study of Mus musculus with 8 samples.

Results

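The MAP kinase phosphatases are dual-specificity phosphatases of the DUSP family that switch MAP kinases off. The 10 genes of the family were Dusp1, Dusp2, Dusp4, Dusp5, Dusp6, Dusp7, Dusp8, Dusp9, Dusp10 and Dusp16. They were listed by name, but the list was chosen with earlier results of these data known. Each had a row among the 23282 rows of all 8 count tables. Of these genes, 7 passed edgeR's filter on low counts and were tested with 13174 rows in all; Dusp4, Dusp5 and Dusp9 did not pass. Levels come from 3'-end sequencing of messenger RNA from gastrocnemius, the large muscle of the calf, of C57BL/6 mice.

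MAP kinases (ERK, JNK and p38) are activated when a kinase upstream adds phosphate to a threonine and a tyrosine of their activation loop. A MAP kinase phosphatase removes both phosphates and so ends the signal. Several of these genes are themselves induced by MAP kinase signalling, which makes them a negative feedback. In muscle, p38 and JNK take part in the response to cytokines, contraction and injury. By location and preference the family is commonly sorted into inducible nuclear enzymes (Dusp1, Dusp2, Dusp4, Dusp5), cytoplasmic enzymes that prefer ERK (Dusp6, Dusp7, Dusp9) and enzymes that prefer JNK and p38 (Dusp8, Dusp10, Dusp16).

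Going by titles, the 3 Normal libraries are of mice given 100 µl of saline under the skin and then 200 µl of distilled water by mouth. The 3 libraries named Control came from mice given 1000000 Lewis lung carcinoma cells, a mouse lung tumour line, and then water. The 2 libraries named RP came from mice given the same cells and then a daily 100 mg/kg of the peony Paeonia lactiflora, extracted in 30% ethanol, for 2 weeks. Dosing began 2 weeks after the injection, when mice with tumours were regrouped by tumour size. All 8 libraries were from C57BL/6 mice with no altered gene named in the labels, and the series' design text gives an age of 4 weeks for the mice used to start tumours. The labels of the Normal and Control samples conflict: their 6 count tables carry the other group's name in the file name and header. Libraries were grouped by title and are called Normal-titled and Control-titled. If the table names hold instead, the first comparison below changes sign and the RP comparisons exchange places.

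The libraries held 9528011 to 12333767 counts. The labels do not say that each library is a separate animal, and p-values therefore rest on a spread between samples that may be technical. All 10 skeletal muscle markers examined (such as Ckm and Acta1) were present in every library. Their summed CPM (counts divided by the scaled library total, times 1000000) was not even across groups. It was 78416 to 104080 in the Normal-titled, 101320 to 121120 in the Control-titled and 126360 and 122660 in the RP libraries. Haemoglobin genes held 4.57 to 19.7% of counts in the Normal-titled, 1.41 to 1.61% in the Control-titled and 0.862 and 3.83% in the RP libraries. In whole muscle, fewer cells of a type and less RNA per cell cannot be told apart. Levels below are CPM after TMM scaling, a correction for differences in library composition, and changes are log2 values from edgeR's quasi-likelihood test over all 8 libraries. P-values are Benjamini-Hochberg adjusted over all genes tested, with a threshold of 0.05. The comparisons share libraries, so their results are not independent of each other.

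The phosphatase genes did not move as a family. Between Control-titled and Normal-titled libraries, Dusp2 was lower and Dusp8 and Dusp10 were higher in the Control-titled libraries, and Dusp1, Dusp6, Dusp7 and Dusp16 did not pass. These 3 calls among 7 tested members stood against 10.4% of all genes called in that comparison. Between RP and Control-titled libraries, 1 of the 7, Dusp2, passed and was higher in RP, against 0.175% of all genes. Between RP and Normal-titled libraries none of the 7 passed in edgeR (1 had an unadjusted p under 0.05, and DESeq2 and limma-voom called 0), against 2.50% of all genes. The median log2 change of the 7 was 0.15, -0.22 and -0.036 in these comparisons, beside medians over all genes of 0.00043, -0.0038 and -0.037. Ranges of CPM did not overlap for 4, 4 and 1 of the 7, against 31.3%, 31.7% and 30.8% of all genes, so such separation was common in groups this small.

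**Figure D1:**
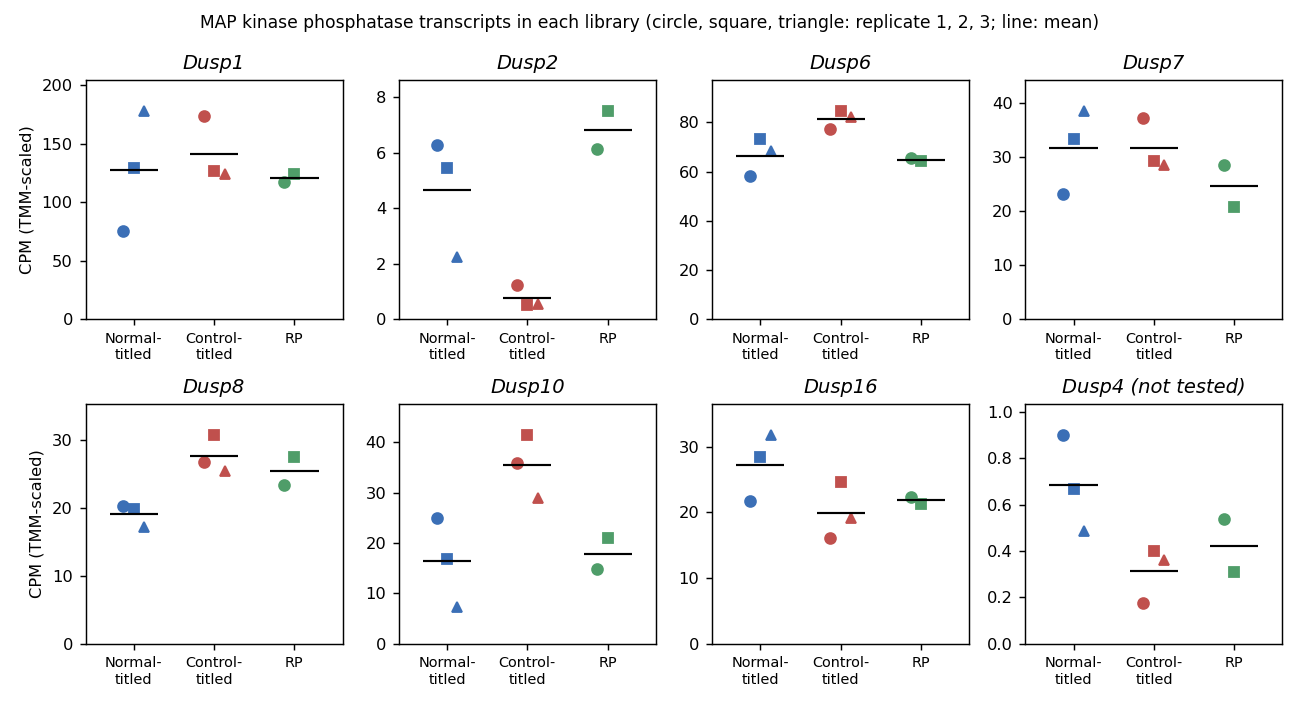
CPM (linear axes from 0) of the 7 tested members and of Dusp4 in each library; points are single libraries, with the shape giving the replicate, and lines are group means. Dusp2 stood at 0.500 to 1.23 CPM in the 3 Control-titled libraries, below all other libraries, and Dusp10 at 29.0 to 41.4 CPM, above all others.

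**Figure D2:**
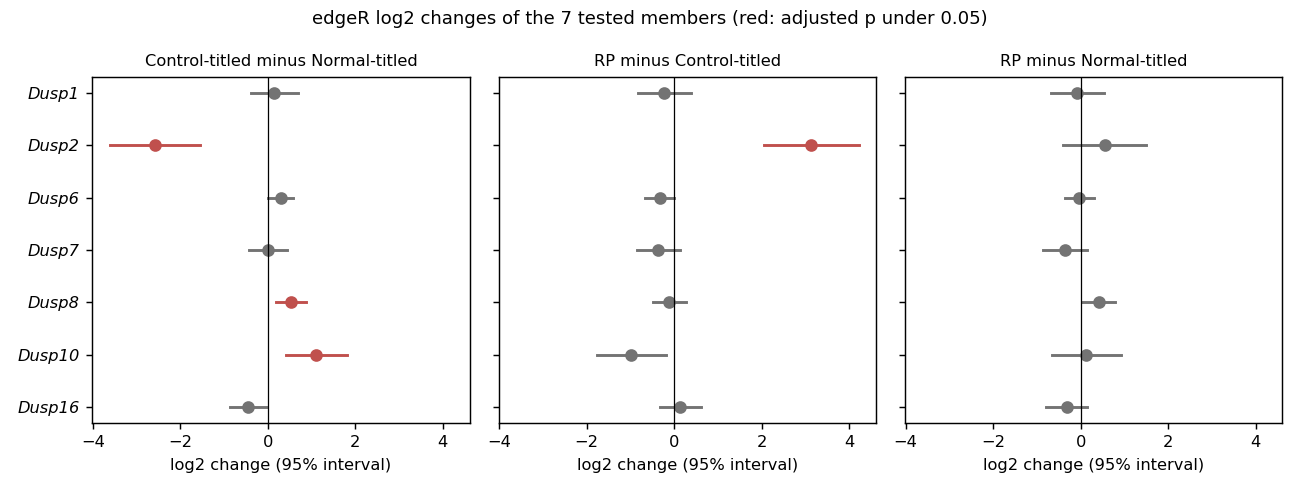
Log2 change with its 95% interval for the 7 tested members in the 3 comparisons; red marks an adjusted p under 0.05. Dusp2 had changes of -2.59 and 3.13 in the comparisons with the Control-titled libraries and the other members lay between -0.98 and 1.11.

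Among the nuclear enzymes, Dusp2, first described in activated blood cells, differed most. It is a gene of 2219 bp on chromosome 2 (127336159 to 127338377, build mm10) with no gene overlapping it in the annotation. Its level was 6.29, 5.45 and 2.23 CPM in Normal 1, 2 and 3, which were 70, 57 and 23 counts. It was 1.23, 0.500 and 0.542 CPM in Control 1, 2 and 3, from 14, 5 and 6 counts. The RP libraries stood at 6.14 and 7.50 CPM, from 57 and 73 counts. All 3 Control-titled libraries thus lay below every other library, with Normal 3 the nearest. Its exact 95% Poisson interval, which covers counting error only, was 1.41 to 3.35 CPM in Normal 3 and 0.674 to 2.07 CPM in Control 1, so these intervals overlapped. The Control-titled libraries were lower than the Normal-titled ones by a log2 change of -2.59 ± 0.477 (SE; interval -3.62 to -1.56; edgeR adjusted p = 0.00434). RP was higher than the Control-titled libraries by 3.13 ± 0.502 (SE; interval 2.05 to 4.22; edgeR adjusted p = 0.0311). RP and Normal-titled libraries overlapped, with a log2 change of 0.55 ± 0.436 (SE; interval -0.39 to 1.49; edgeR adjusted p = 0.563).

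Dusp2 reached the filter's level of 0.979 CPM, needed in at least 2 libraries, in 3 Normal-titled, 2 RP and 1 Control-titled libraries, so it entered the test through the groups where it was high. Without the filter its adjusted p was 8.86e-06 and 4.16e-06 in the 2 comparisons with the Control-titled libraries. That setting also raised the calls over all genes in RP against Control-titled libraries, so these values do not remove that limit. A mean CPM of at least 5 left Dusp2 out of the test. The call against the Normal-titled libraries held in all 15 alternatives that tested the gene, with adjusted p of at most 0.0310. The call against RP held in 9 of 14. The call was lost on removing Control 2, Control 3, RP 1 or RP 2 (adjusted p = 0.151, 0.201, 0.0576 and 0.0823), or in limma-voom (adjusted p = 0.100).

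Blood cell markers were set beside Dusp2 because its transcript is known from leukocytes. The summed CPM of 11 neutrophil markers was 961 to 1977 in the Normal-titled and 15.5 to 28.0 in the Control-titled libraries. It was 40.0 in RP 1 and 506.8 in RP 2. Each Control-titled library had 4 of the 11 at 0, among them Ltf and Elane, and RP 1 had Ltf, Ngp and Elane at 0. Elane had at most 1 count in any library, so its 0 does not mark a group. Most of the sum in the Normal-titled libraries and RP 2 was S100a8 and S100a9, at 947 and 859 CPM in Normal 2 and 232 and 225 CPM in RP 2. Dusp2 in RP 1 was at 6.14 CPM, with a Poisson interval of 4.65 to 7.95 CPM. The summed CPM of 9 macrophage markers was 613, 636 and 303 in Normal 1, 2 and 3. It was 480 to 692 in the Control-titled libraries and 403 and 612 in RP 1 and 2. Across libraries, 9 T and B cell markers summed to between 1.26 and 2.64 CPM, with 2 to 6 of them at 0 in each. The sums were 1.29 and 1.64 CPM in the RP and 2.00 to 2.64 CPM in the Control-titled libraries. Of the 9 T and B cell markers, 0 passed the filter on low counts, so their sums rest on few counts and do not rank the groups. The part of these cells in the level of Dusp2 was not tested.

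**Figure D3:**
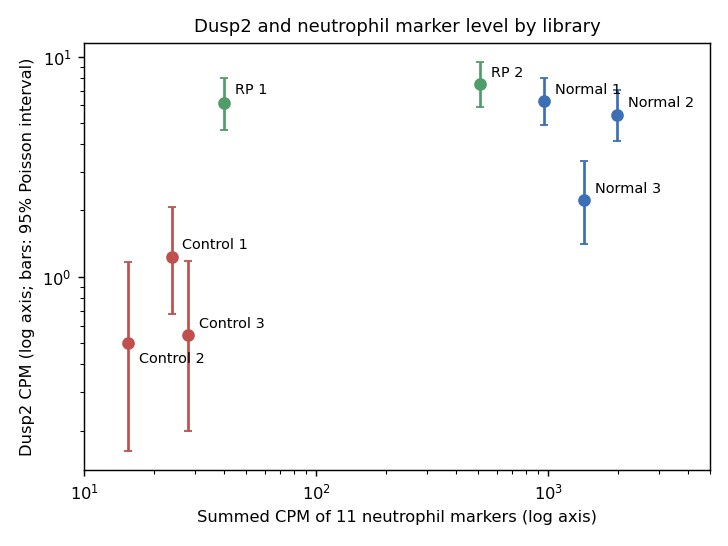
Dusp2 CPM (log axis, bars are exact 95% Poisson intervals) against the summed CPM of 11 neutrophil markers (log axis), 1 point per library, coloured by group. Neutrophil markers summed to 15.5 to 28.0 CPM in the Control-titled libraries, 40.0 and 506.8 in RP 1 and 2 and 961 to 1977 in the Normal-titled libraries.

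Dusp1, which encodes MKP-1, an enzyme acting on p38, JNK and ERK and a known glucocorticoid target, did not separate the groups. Its level was 75.2, 129 and 178 CPM in Normal 1, 2 and 3, so the Normal-titled libraries alone spanned the range of all others. It was 173, 126 and 124 CPM in Control 1, 2 and 3 and 118 and 124 CPM in RP 1 and 2. The log2 change was 0.15 ± 0.248 (SE) for Control-titled against Normal-titled libraries, with an interval of -0.39 to 0.68 and edgeR adjusted p = 0.754. RP differed from the Control-titled libraries by -0.22 (interval -0.83 to 0.38) and from the Normal-titled ones by -0.076 (interval -0.68 to 0.52), with edgeR adjusted p = 0.861 and 0.929. No alternative brought Dusp1 past the threshold, but the size of its change depended on the setting. For Control-titled against Normal-titled libraries it was 1.00 with log2 Hba-a1 as a covariate, 0.46 without Normal 3, -0.12 without Normal 1 and -0.025 without Control 1. For RP against Normal-titled libraries it was 0.68 with the covariate, 0.26 without Normal 3 and -0.35 without Normal 1. For RP against Control-titled libraries it was -0.050 without Control 1. The gene lies on chromosome 17 (26505591 to 26508472). The annotation used for overlaps gives it a longer span of 56539 bp, which 4 genes overlap. These are AC122252.1 and AC122252.4 on the same strand and Ergic1 and Gm8225 on the opposite strand, none of them at its 3′ end.

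The other inducible nuclear genes gave few counts. Dusp4, which acts on ERK and other MAP kinases, had 10, 7 and 5 counts in Normal 1, 2 and 3, 2, 4 and 4 in Control 1, 2 and 3, and 5 and 3 in RP 1 and 2. That is 0.485 to 0.899 CPM in the Normal-titled and 0.176 to 0.400 CPM in the Control-titled libraries, which did not overlap, but the Poisson intervals of Normal 3 (0.157 to 1.13 CPM) and Control 2 (0.109 to 1.02 CPM) did, and no test was run. Dusp5, a nuclear phosphatase specific for ERK, was at 0 in all 8 libraries, and 0 counts allow up to 0.264 to 0.323 CPM in a library by a floor of 3 counts, or 0.325 to 0.397 CPM by the upper bound of the exact Poisson interval used above.

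The cytoplasmic ERK phosphatases passed no test. Dusp6, the enzyme known as MKP-3 and a common readout of ERK activity, was at 58.1, 73.4 and 68.2 CPM in Normal 1, 2 and 3, at 77.4, 84.6 and 82.4 CPM in Control 1, 2 and 3 and at 65.6 and 64.2 CPM in RP 1 and 2. Every Control-titled library stood above every other library. Neither difference passed the test. The log2 change was 0.29 ± 0.136 (SE; interval -0.0019 to 0.59; edgeR adjusted p = 0.192) for Control-titled against Normal-titled libraries. It was -0.33 ± 0.154 (SE; interval -0.66 to 0.0038; edgeR adjusted p = 0.563) for RP against the Control-titled ones, and in neither comparison did an alternative bring it past the threshold. RP and Normal-titled libraries differed by -0.036 (interval -0.37 to 0.29, edgeR adjusted p = 0.940).

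Dusp7, a close relative of Dusp6, was at 23.3 to 38.6 CPM in the Normal-titled libraries, 28.5 to 37.3 CPM in the Control-titled ones and 20.8 and 28.5 CPM in RP. Its log2 change was -0.0026 (interval -0.44 to 0.43, edgeR adjusted p = 0.995) for Control-titled against Normal-titled libraries. RP had -0.36 against the Control-titled and -0.37 against the Normal-titled libraries (edgeR adjusted p = 0.690 and 0.457). Dusp9, which is best known from placenta, had 2 counts in Normal 3, 3 in Control 3 and 0 in the other libraries, and was not tested.

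Of the 3 phosphatases that prefer JNK and p38, Dusp8 and Dusp10 were higher in Control-titled than in Normal-titled libraries and Dusp16 did not pass. Dusp10, which encodes MKP-5, a phosphatase of JNK and p38 studied in muscle regeneration, was at 24.9, 16.8 and 7.28 CPM in Normal 1, 2 and 3. It was at 35.9, 41.4 and 29.0 CPM in Control 1, 2 and 3 and at 14.9 and 21.0 CPM in RP 1 and 2. All Control-titled libraries stood above all others, and the Normal-titled libraries spread widely. Control-titled exceeded Normal-titled libraries by a log2 change of 1.11 ± 0.321 (SE; interval 0.42 to 1.80; edgeR adjusted p = 0.0431). RP stood at -0.98 ± 0.366 (SE; interval -1.77 to -0.19) against the Control-titled libraries, with an unadjusted p of 0.0187 and edgeR adjusted p = 0.425. Against the Normal-titled libraries RP stood at 0.13 (interval -0.66 to 0.92, edgeR adjusted p = 0.903). The gene covers 41256 bp of chromosome 1 (184034381 to 184075636), and an opposite-strand gene, 1700056E22Rik, overlaps its annotated span. The strand counted is not given in the sources used here, so reads of the 2 cannot be told apart where they overlap.

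The call of Dusp10 was close to the threshold and passed in 9 of 16 alternatives. Removing Normal 2, Control 1, Control 2 or Control 3 ended it (adjusted p = 0.118, 0.118, 0.126 and 0.0769), as did a mean CPM of at least 5 (0.0501) and a fit with only the 2 groups compared (0.0531). In the RP comparison it passed in 2 of 15, without a filter (adjusted p = 0.0403) and with only the groups compared (adjusted p = 0.0485). Among the Normal-titled libraries Dusp10 was lowest where haemoglobin was highest: the shares of haemoglobin were 4.57, 9.56 and 19.7% in Normal 1, 2 and 3. With log2 Hba-a1 as a covariate the log2 change was 0.46 (adjusted p = 0.650). Hba-a1 did not overlap between these 2 groups, so the covariate largely follows group and the loss of the call has no single reading. The summed level of 8 fibroblast and tenocyte markers was 7956, 5991 and 5229 CPM in Normal 1, 2 and 3, 7763 to 8597 CPM in the Control-titled and 7135 and 7281 CPM in the RP libraries. Most of that sum was Dcn, at 4883 to 7036 CPM. Of the 8 markers, 5 (Lum, Col1a1, Col3a1, Tnmd and Kera) were higher in Control-titled than in Normal-titled libraries, as Dusp10 was. In that comparison 10.4% of all genes were called. Dcn had -0.18 and Pdgfra 0.21 (edgeR adjusted p = 0.533 and 0.552), and neither these nor Fmod were called. The median log2 change over the 8 was 1.78. Tnmd, a tendon gene, had 2.85 (edgeR adjusted p = 1.0e-04), Kera, a matrix proteoglycan, had 3.23 (edgeR adjusted p = 3.9e-05), and Col3a1, a fibrillar collagen, had 2.85 (edgeR adjusted p = 6.7e-04). In RP against Control-titled libraries the median log2 change of the 8 was -0.32. In RP against Normal-titled libraries it was 1.41, with 4 of the 8 called higher beside 2.50% of all genes called. Dusp10 had 0.13 in that comparison and did not pass. The part of other cells in the level of Dusp10 was not tested.

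Dusp8, a JNK and p38 phosphatase known from brain and heart, was at 20.3, 19.9 and 17.2 CPM in Normal 1, 2 and 3, at 26.7, 30.7 and 25.4 CPM in Control 1, 2 and 3 and at 23.4 and 27.5 CPM in RP 1 and 2. The Normal-titled libraries lay below all others, and RP and Control-titled libraries overlapped. Control-titled exceeded Normal-titled libraries by 0.53 ± 0.158 (SE; interval 0.19 to 0.87; edgeR adjusted p = 0.0498), which was only just past the threshold. It passed in 4 of 16 alternatives, and the log2 change stayed between 0.45 and 0.59 in all of them. The call was lost in 12 alternatives. Among these were the removal of Normal 2, Normal 3, Control 1, Control 2 or Control 3 (adjusted p = 0.100, 0.109, 0.132, 0.165 and 0.0976) and log2 Hba-a1 as a covariate (0.292). The replicate block was another, as were RLE normalization, DESeq2 and limma-voom (adjusted p = 0.0530, 0.0515 and 0.0531). RP differed from the Control-titled libraries by -0.12 (interval -0.49 to 0.26, edgeR adjusted p = 0.893) and from the Normal-titled ones by 0.41 (interval 0.033 to 0.79, unadjusted p = 0.0353, edgeR adjusted p = 0.248). The gene lies on chromosome 7 (142079487 to 142095907), where the opposite-strand gene Gm32786 overlaps it.

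Dusp16, which encodes MKP-7, a JNK phosphatase, was at 21.7, 28.4 and 31.7 CPM in Normal 1, 2 and 3, at 16.1, 24.6 and 19.1 CPM in Control 1, 2 and 3 and at 22.4 and 21.3 CPM in RP 1 and 2. The groups overlapped. The log2 change of -0.45 ± 0.193 (SE; interval -0.87 to -0.035) for Control-titled against Normal-titled libraries did not pass (edgeR adjusted p = 0.157). Without Normal 1 it passed, with a log2 change of -0.59 and adjusted p = 0.0457. RP differed by 0.13 from the Control-titled and by -0.32 from the Normal-titled libraries (edgeR adjusted p = 0.903 and 0.494).

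**Figure D4:**
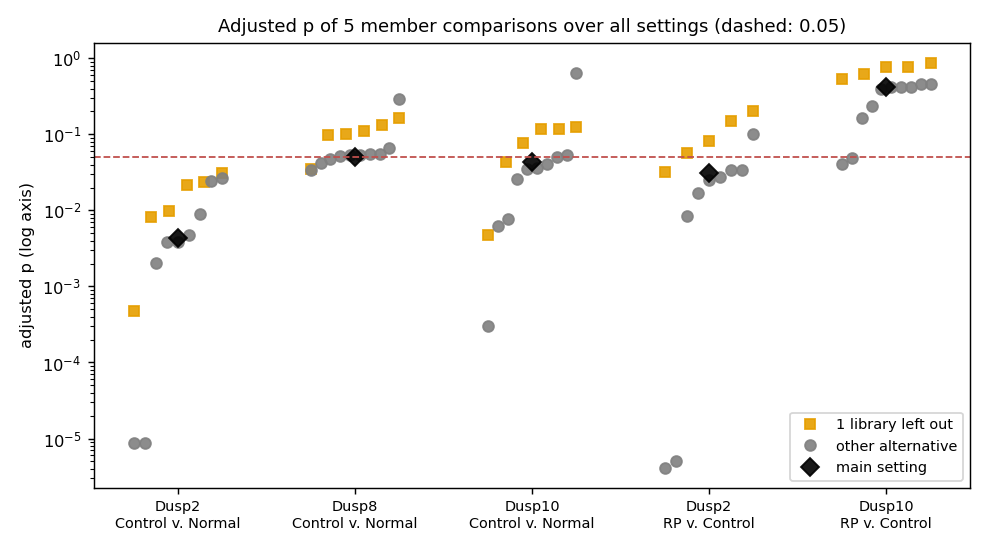
Adjusted p (log axis) of 5 member comparisons under the main setting (diamond), with 1 library left out (squares) and under the other alternatives (circles); the dashed line is 0.05. For Dusp2 in Control-titled against Normal-titled libraries every point lies below the line, while Dusp8 and Dusp10 lie on both sides of it.

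The promoters of the 3 genes with a call are shown because Dusp8 and Dusp10 were both higher in the Control-titled libraries while Dusp2 was lower. They are the 250 bases before a RefSeq start (build GRCm38.p6, whose chromosomes are those of mm10), written 5′ to 3′ on the gene's strand. RefSeq's table held 8 of the 10 members, without Dusp4 and Dusp9. Each was searched on both strands for the cAMP response element TGACGTCA, its core TGACG (which lies within the full site), the AP-1 site TGACTCA, the E-box CACGTG and the ETS site CCGGAAGT. Capitals mark every match. The sequences are Dusp2, chr2:127335909-127336158, plus strand; Dusp8, chr7:142095285-142095534, minus strand; and Dusp10, chr1:184034131-184034380, plus strand.
Dusp2: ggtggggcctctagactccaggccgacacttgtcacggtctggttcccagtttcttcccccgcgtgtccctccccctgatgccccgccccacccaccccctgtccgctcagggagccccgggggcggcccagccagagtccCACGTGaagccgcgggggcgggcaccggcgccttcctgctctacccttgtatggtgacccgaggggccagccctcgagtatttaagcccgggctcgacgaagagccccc
Dusp8: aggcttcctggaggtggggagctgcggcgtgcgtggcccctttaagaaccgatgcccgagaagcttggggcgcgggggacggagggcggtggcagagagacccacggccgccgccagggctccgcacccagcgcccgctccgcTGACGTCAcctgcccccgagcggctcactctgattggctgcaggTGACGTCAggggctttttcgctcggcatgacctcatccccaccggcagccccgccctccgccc
Dusp10: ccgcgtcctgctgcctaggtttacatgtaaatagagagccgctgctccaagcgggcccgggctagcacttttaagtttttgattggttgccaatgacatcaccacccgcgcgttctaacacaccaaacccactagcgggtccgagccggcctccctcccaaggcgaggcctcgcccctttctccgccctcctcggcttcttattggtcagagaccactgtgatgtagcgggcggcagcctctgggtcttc

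The Dusp8 window held 2 full cAMP response elements, with first bases at -107 and -63 from the start, and 1.55% of 32851 promoter windows held 1 or more. This window lies inside the gene's RefSeq span (142079487 to 142095907), so the start it precedes is not the outermost one. The Dusp2 window held an E-box at -109, found in 6.02% of windows. The Dusp10 window held none of the 5 motifs. Dusp1, whose level did not separate the groups, also held a full cAMP response element, at -143. No match of the AP-1 or ETS letters lay in any of the 8 windows, and these letters were in 4.46 and 2.88% of all windows. Dusp2 and Dusp8 were 70.4 and 71.6% G and C and Dusp10 was 59.6%, beside a median of 52.4% over all windows. A match is a run of letters and not evidence that a factor was bound.

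The rest of the MAP kinase pathway was described with 8 lists of genes, of which 102 had a row and 87 were tested. In the Control-titled against Normal-titled libraries 3 of the 87 were higher and 8 lower, 11 in all beside 10.4% of all genes, and their median log2 change was 0.024. The count was 7 without Normal 2, Control 1 or Control 2, 5 without Control 3 and 5 with log2 Hba-a1 as a covariate. None of the 9 MAP kinases tested passed in edgeR (1 had an unadjusted p under 0.05, and DESeq2 and limma-voom called 0). These 9 kinases had log2 changes between -0.23 and 0.38, and 0 of 9 is close to the 10.4% of all genes called. Other ERK feedback genes, such as the Sprouty genes, had 0 of 9 past the threshold, also close to that share (1 by unadjusted p, 0 by DESeq2 and limma-voom).

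Upstream of p38, Map2k6, which encodes the p38 kinase MKK6, was higher in both the Control-titled and the RP libraries than in the Normal-titled ones. Its level was 3.42, 4.21 and 5.04 CPM in Normal 1, 2 and 3 and 24.8, 18.0 and 16.8 CPM in Control 1, 2 and 3. RP 1 and 2 stood at 17.6 and 20.0 CPM, within the range of the Control-titled libraries. The log2 change was 2.24 ± 0.225 (SE; edgeR adjusted p = 7.0e-05) for Control-titled and 2.15 ± 0.242 (SE; edgeR adjusted p = 5.3e-04) for RP against Normal-titled libraries. It passed in all 16 and all 15 alternatives. Mapk8ip1, a JNK scaffold, was also higher in the Control-titled libraries (1.02, edgeR adjusted p = 0.0402); its 3′ end adjoins 1700029I15Rik. Removing Normal 1, Normal 3, Control 1, Control 2 or Control 3 ended the call (adjusted p = 0.0524 to 0.142) as did log2 Hba-a1 as a covariate (0.435) and a fit with only the 2 groups compared (0.0534).

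Of the genes that were lower in the Control-titled libraries, Mknk2, a kinase activated by ERK and p38 that phosphorylates the cap-binding factor eIF4E, was at 308, 444 and 404 CPM in Normal 1, 2 and 3 and at 162, 168 and 166 CPM in Control 1, 2 and 3, a log2 change of -1.22 ± 0.155 (SE; edgeR adjusted p = 3.9e-04). The RP libraries lay between them at 223 and 232 CPM (-0.76 against Normal-titled, edgeR adjusted p = 0.0393; passed in 9 of 15 alternatives). That call was lost on removing Normal 2, RP 1 or RP 2 (adjusted p = 0.136, 0.286 and 0.144), with the replicate block (0.0897), with log2 Hba-a1 as a covariate (0.255) and with only the 2 groups compared (0.184). The MAP3 kinase genes Map3k6 and Araf had log2 changes of -1.05 and -0.97 (edgeR adjusted p = 0.00704 and 0.0157). Rps6ka3 and Mapkapk3, kinases downstream of ERK and p38, had -0.57 and -0.89 (edgeR adjusted p = 0.0229 and 0.0321), and Gadd45a, a stress gene that activates the p38 and JNK branch, had -0.79 (edgeR adjusted p = 0.00534). Mknk2 and Map3k6 passed in all 16 alternatives against the Normal-titled libraries. Araf was lost on removing Normal 2, Control 2 or Control 3 (adjusted p = 0.0611 to 0.0865), Rps6ka3 without Control 1, 2 or 3 (0.0805 to 0.102) and Mapkapk3 without Normal 2, Normal 3, Control 1, 2 or 3 (0.0823 to 0.117). With log2 Hba-a1 as a covariate, Araf, Rps6ka3, Mapkapk3 and Gadd45a did not pass (adjusted p = 0.552, 0.488, 0.986 and 0.0646), and Mapkapk3 did not pass in limma-voom (0.0599). The 3′ end of Araf adjoins Syn1 on the opposite strand, whose reads cannot be told apart from its own.

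The atypical dual-specificity phosphatases are relatives that lack the kinase-binding domain of the family above. They had 1 higher and 2 lower of 14 tested in Control-titled against Normal-titled libraries, where 10.4% of all genes were called. Dusp14 was at 6.02, 6.03 and 6.89 CPM in Normal 1, 2 and 3 and at 15.1, 14.2 and 13.0 CPM in Control 1, 2 and 3, with RP at 9.69 and 12.5 CPM between them. Its log2 change of 1.16 ± 0.198 (SE; edgeR adjusted p = 0.00277) passed in all 16 alternatives. Dusp26 was at 95.5 to 175 CPM in the Normal-titled, 62.0 to 80.1 CPM in the Control-titled and 65.7 and 75.2 CPM in the RP libraries, with log2 changes of -0.87 and -0.94 against the Normal-titled libraries (edgeR adjusted p = 0.0147 and 0.0497). The first was lost on removing Normal 2 or Control 3 (adjusted p = 0.0515 and 0.0889) or with log2 Hba-a1 as a covariate (0.552). The second passed in 4 of 15 alternatives, with adjusted p up to 0.441 (log2 Hba-a1 as a covariate), and the removal of Normal 2, Normal 3, RP 1 or RP 2 was among those that ended it (0.0644 to 0.257). Dusp27, a muscle pseudophosphatase, had -0.65 (edgeR adjusted p = 0.0310) and was lost on removing Normal 1, Normal 2, Control 1, 2 or 3 (0.0566 to 0.153) or with log2 Hba-a1 as a covariate (0.0709). Styx, another pseudophosphatase, was higher in RP than in the Normal-titled libraries (0.75, edgeR adjusted p = 0.0289), and passed in 9 of 15 alternatives. It was lost on removing Normal 2, RP 1 or RP 2 (0.0605 to 0.263), with the replicate block (0.0814), with log2 Hba-a1 as a covariate (0.172) and with only the 2 groups compared (0.0998).

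Between RP and Control-titled libraries 0 of the 87 pathway genes passed in edgeR, beside 0.175% of all genes. DESeq2 and limma-voom also called 0. Of the 87, 12 had an unadjusted edgeR p under 0.05, beside 1183 of all 13174 genes tested. The median log2 change of the 87 was 0.065. Between RP and Normal-titled libraries 4 of the 87 passed (Map2k6, Mknk2, Dusp26 and Styx), beside 2.50% of all genes, with a median log2 change of 0.0033. That count ran from 1 to 8 over 15 alternatives: it was 8 in DESeq2 or without a filter, 7 without Normal 3, and 1 without Normal 2, RP 1 or RP 2, with the covariate, the replicate block or only the 2 groups compared.

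**Figure D5:**
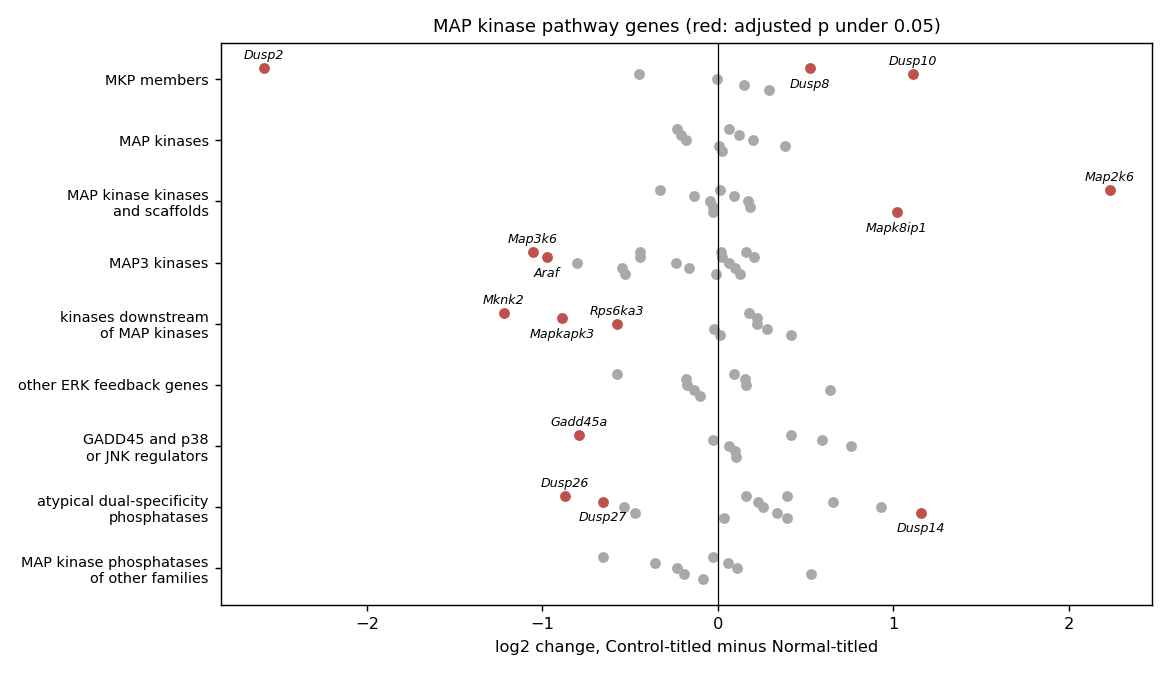
Log2 change, Control-titled minus Normal-titled, of the 7 tested phosphatase members (top row) and of 87 pathway genes in 8 lists; each point is a gene, red where adjusted p is under 0.05, and the vertical offset within a row has no meaning. Map2k6 at 2.24 and Dusp2 at -2.59 lie farthest from 0.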

How the data were processed

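The deposited files, 1 a library, give the authors' raw counts by gene symbol. Per the labels' protocols, a Lexogen QuantSeq kit, which reads 3' ends, was used on 500 ng of total RNA per library; Bowtie2, edgeR and build mm10 are named per the submitters' processing notes. The counting tool, strand and annotation are not given in the sources used here. The 35 repeated symbols were kept as separate rows. The files' columns were assigned by GEO sample and grouped by title.

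A single fit over the 8 libraries with edgeR 4.0.16 (R 4.3.3, TMM normalization, filterByExpr) gave 2-sided quasi-likelihood tests, Benjamini-Hochberg adjusted over 13174 genes. The pipeline was tested on simulated data. The fit was repeated with DESeq2 1.42.0 and limma-voom (limma 3.58.1), with upper-quartile or RLE normalization, with a minimum mean CPM of 5 or without a filter, with only the 2 groups compared, with a replicate block, with log2 Hba-a1 as a covariate, after removal of haemoglobin genes and Rn45s, and leaving out each library. Applying these to pathway genes was decided after the data were seen. Hba-a1 was at 14865 to 81453 CPM in the Normal-titled, 5224 to 6711 CPM in the Control-titled and 3738 and 14666 CPM in the RP libraries. The covariate therefore largely follows group in comparisons with the Normal-titled libraries. A call lost with it cannot be ascribed to haemoglobin. The phosphatase genes, lists and tests were chosen with earlier results of these data known. Text names all 10 phosphatases, up to 3 called genes of each list, and for each called phosphatase the 3 genes most like it. The last 500 bases of the members' coding transcripts in GENCODE M21 shared no stretch of 50 bases with another gene's transcript. Gene positions and promoters came from RefSeq (GRCm38.p6). Figures were drawn with matplotlib 3.10.9.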

Additional observations from a re-analysis of the deposited data

How the results depend on the processing

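Of the phosphatase genes, 3 of 7 were called in Control-titled against Normal-titled libraries, and 1 each with a mean CPM of at least 5 (which leaves Dusp2 out), with log2 Hba-a1 as a covariate and with only the 2 groups compared. DESeq2 and limma-voom called 2 each. Leaving out 1 library gave 1 to 4. The single call in RP against Control-titled libraries became 2 without a filter or with only the 2 groups compared, and 0 with a mean CPM of at least 5 (Dusp2 left out) or limma-voom; leaving out 1 library gave 0 to 1. In RP against Normal-titled libraries the count was 0 in all 15 alternatives. Over all genes, the 1376 calls of the first comparison became 382 with the covariate and 608 to 1858 with 1 library left out (805 without Normal 2, and 609, 846 and 608 without Control 1, 2 and 3). The 23 calls of RP against Control-titled libraries became 204 without a filter, 11 with a mean CPM of at least 5, 112 in DESeq2, 10 in limma-voom, 121 with only the 2 groups compared and 8 to 31 with 1 library left out (15, 8 and 9 without Control 1, 2 and 3). The 330 calls of RP against Normal-titled libraries became 718 without a filter, 676 in DESeq2, 104 with the covariate, 100 with only the 2 groups compared and 57 to 670 with 1 library left out (670, 137 and 580 without Normal 1, 2 and 3, and 57 without RP 1). The causes were not tested. None of the 4 calls of a phosphatase gene changed direction in any alternative that tested it. With 1 RP library left out, the remaining one was taken to vary as the Normal and Control libraries do.

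Normal and Control libraries of the same number did not deviate together (r = -0.0666, -0.0185 and -0.0415 across genes), so the numbers were not taken as pairs. With the replicate block, 2, 1 and 0 members were called, with Dusp8 lost (adjusted p = 0.0667), and 1218, 17 and 262 genes in all.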

Other observations

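The genes whose pattern over the 8 libraries was most like that of each called member were named by the highest Pearson r of log2 CPM among 9734 or 9735 genes of mean CPM at least 5. For Dusp2 these were Ell, which encodes a transcription elongation factor (r = 0.991), Impact, a regulator of the integrated stress response kinase GCN2 (r = 0.986), and Midn (r = 0.966). For Dusp8 they were Slc35b2, Pcyox1 and Lsp1 (r = 0.983, 0.977 and 0.974). For Dusp10 they were Olfml2b, an extracellular matrix gene, St6gal1, a sialyltransferase, and Cmtm3 (r = 0.981, 0.978 and 0.976). Lsp1 overlaps an opposite-strand gene, Prr33, at its 3′ end. Among the members themselves, r was 0.82 between Dusp8 and Dusp10, 0.75 between Dusp1 and Dusp7, -0.71 between Dusp10 and Dusp16 and -0.88 between Dusp2 and Dusp6, over the same libraries, which share depth and group.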
